A study of Mus musculus with 16 samples.

Results

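The interferon-stimulated genes examined here are 39 genes that cells switch on when interferons bind their receptors. They were listed by name and found on the arrays by matching the accession of each probe to a gene symbol. Of the 39, 35 had at least 1 probe, over 51 probes in all, and each of the 35 entered the test of 25189 features. The symbols Mx1, Mx2, Dtx3l and Samd9l matched no probe accession and were not analysed here. The list holds 28 genes called type I-like below (24 of them measured), 7 genes of the GTPase families that interferon-gamma induces (all measured) and 4 transcription factor genes (all measured). The measure is a single-dye Agilent array signal from quadriceps, a thigh muscle, with 1 array per animal and 4 animals in each of 4 groups. The groups were wild-type (WT) mice given vehicle, WT mice given dexamethasone, Klf15 knockout (KO) mice given vehicle and KO mice given dexamethasone. Every animal received 1 intraperitoneal injection, either of vehicle or of dexamethasone at 2 mg/kg, and every sample analysed here was taken at 8 h. Dexamethasone is a synthetic glucocorticoid, and Klf15 encodes a Krüppel-like zinc-finger transcription factor that glucocorticoids induce. The comparisons ask how the muscle's transcripts respond to the glucocorticoid and whether the response needs Klf15. The sources used here do not give age, sex, strain or the way the knockout was made.

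Type I interferons signal through the receptor chains IFNAR1 and IFNAR2, and interferon-gamma through IFNGR1 and IFNGR2. Janus kinases bound to these receptors phosphorylate STAT proteins. A complex that holds STAT2 and IRF9 binds the interferon-stimulated response element, and interferon-gamma signalling acts through the gamma-activated sequence. The induced genes encode sensors of viral RNA, proteins that block viral translation or budding, the ubiquitin-like modifier ISG15 and its enzymes, and large GTPases that attack the membranes around intracellular microbes. Many of them are expressed at a low level without infection, driven by a constant trickle of interferon. Glucocorticoids bind a nuclear receptor and are known to restrain inflammatory gene expression in many tissues.

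The letters upstream of the start sites are shown first, for 8 genes of the GTPase, IFIT and ISG15 families. These 8 were chosen because they hold the element marked below. The sequences are from RefSeq with build GRCm38.p6 and are written 5′ to 3′ on the strand of the gene. Capitals mark matches to the core of the interferon-stimulated response element, which is GAAA, any 2 bases and GAAA again, on either strand.
Gbp2: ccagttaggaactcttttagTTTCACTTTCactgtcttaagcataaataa
Gbp3: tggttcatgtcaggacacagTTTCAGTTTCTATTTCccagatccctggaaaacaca
Igtp: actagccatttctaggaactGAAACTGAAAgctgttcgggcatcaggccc
Irgm1: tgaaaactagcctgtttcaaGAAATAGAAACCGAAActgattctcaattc
Tgtp1: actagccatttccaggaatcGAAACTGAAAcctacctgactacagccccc
Ifit1: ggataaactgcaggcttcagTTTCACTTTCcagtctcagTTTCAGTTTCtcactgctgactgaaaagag
Ifit3: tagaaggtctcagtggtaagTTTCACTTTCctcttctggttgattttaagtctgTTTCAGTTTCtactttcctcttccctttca
Isg15: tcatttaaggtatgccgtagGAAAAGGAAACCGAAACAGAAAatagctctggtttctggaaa
The stretches lie at chr3:142620584-142620633, plus strand, for Gbp2 and chr3:142559979-142560034, plus strand, for Gbp3, neighbours on 1 chromosome. Those of Igtp (chr11:58199502-58199551, plus strand), Irgm1 (chr11:48871421-48871470, minus strand) and Tgtp1 (chr11:48992294-48992343, minus strand) lie on another. The Ifit1 and Ifit3 stretches lie at chr19:34640765-34640833, plus strand, and chr19:34583353-34583436, plus strand, and that of Isg15 at chr4:156200855-156200916, minus strand. Isg15 has 3 overlapping matches, and Gbp3 and Irgm1 have 2 overlapping matches each, whereas Ifit1 and Ifit3 have 2 separate ones.

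Over the 250 bases before the start, 28 of the 39 genes had a sequence to search. The response-element core was present in 12 of the 28 (42.9%), against 3.46% of all 27025 genes searched in the same way. It was found in 5 of 5 GTPase genes with a sequence, 6 of 19 type I-like genes and 1 of 4 factor genes. Ifit2 had a sequence to search but no match to the core. The gamma-activated sequence, searched as TTCNNNGAA on both strands, was present in 6 of the 28 (21.4%), against 8.13% of all genes, and in Igtp, Tgtp1 and Bst2 it stood beside or overlapped the response-element core. The glucocorticoid response element palindrome, AGAACA and TGTTCT with any 3 bases between, on either strand, was present in 0 of the 28 genes and in 3 genes overall. These are matches of letters in a short window and not binding sites.
In Irf1, a known target of interferon-gamma, capitals mark the match to the gamma-activated sequence.
Irf1: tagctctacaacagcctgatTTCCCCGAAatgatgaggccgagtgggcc
It lies at chr11:53769904-53769952, plus strand.

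Between 66.3% and 80.6% of the spots on each of the 16 arrays were detected above background, and the intensity at the 75th percentile lay between 556 and 1169. All values below are log2 levels relative to that percentile of the same array, so a value of 0 is the level of the percentile itself, and levels are compared only within a probe. Klf15 ranged from 2.80 to 3.78 under vehicle and from 3.94 to 4.77 under dexamethasone in WT, and from -1.29 to -0.12 and 0.23 to 0.64 in KO, so it was lower in every library labelled KO than in every WT library. The skeletal muscle markers were all detected, and 0 of 7 changed with dexamethasone in either genotype (limma, 0 at an adjusted p under 0.05). The arrays lay on 8 slides, and 5 of the slides held arrays of more than 1 group. WT dexamethasone replicate 3 and KO dexamethasone replicate 1 stood apart by neutrophil markers, whose median lay 6.93 and 5.45 above its mean over the arrays. On the other 14 arrays it lay between -1.73 and 0.48. Results that changed without these arrays are named where they occur. WT dexamethasone replicate 3 was also the only array of scan day 2 and the only array on slide 1. It had the lowest intensity at the 75th percentile (556), and the part of scan day, slide and intensity in its values was not tested. Precision is limited by the 4 arrays in each group. The main fit had no slide term, so its p-values measure a spread in which animal and slide are mixed. The correlation within slides was 0.57 in the fit with slide as a random block. WT vehicle arrays lay on slides 4, 5, 6 and 7 and WT dexamethasone arrays on slides 1, 2, 5 and 8, so that comparison also holds slide differences.

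Dexamethasone lowered most of the interferon-stimulated genes, in both genotypes. In WT 23 of the 35 genes fell and 1, Trim25, rose at an adjusted p under 0.05 (limma with Benjamini-Hochberg adjustment over all features), where 10.7% of all features passed, 5.66% of them lower and 5.03% higher. In KO 25 fell and 0 rose, where 10.2% of features passed, 4.51% lower and 5.7% higher. At an unadjusted p under 0.05, 33 members passed in WT and 30 in KO, with 2 higher in WT and 1 higher in KO. These counts have no share of all features beside them, since the shares given here are at the adjusted threshold. The same 21 genes fell in both genotypes, against 2.31% of all features. The median log2 change over the 35 genes was -0.94 in WT and -0.84 in KO, against -0.08 and 0.08 over all features. All 4 dexamethasone arrays lay below all 4 vehicle arrays for 28 genes in WT and 25 in KO, where 9.37% and 6.72% of all features did so. Averaged over the genotypes, 29 genes fell and 2, Trim25 and Usp18, rose, where 17.2% of features passed, 8.17% lower and 9.06% higher.

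**Figure D1:**
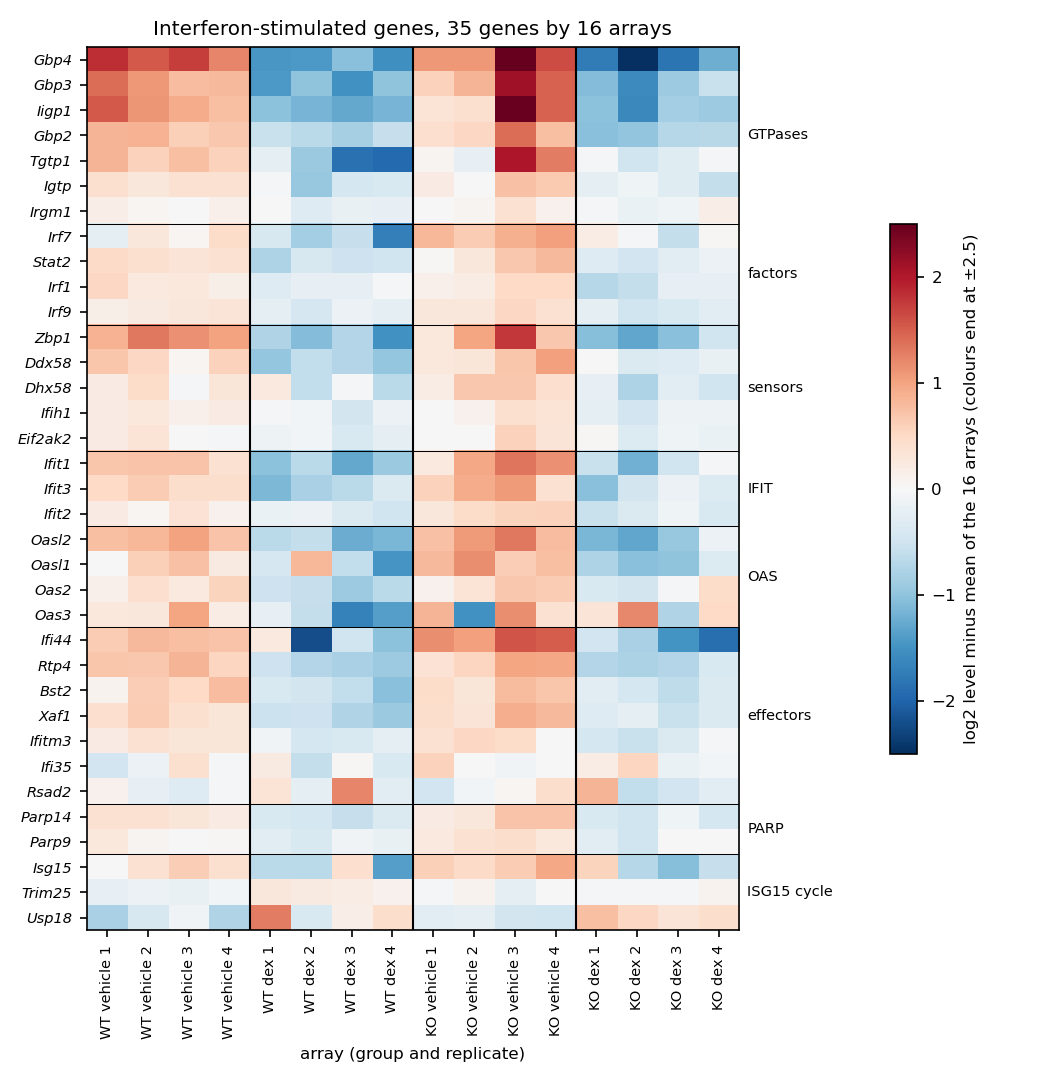
Log2 level of each of the 35 genes (vertical axis, grouped by role) on each of the 16 arrays (horizontal axis, by group and replicate), as the deviation from the gene's mean over the arrays; colours end at ±2.5. The vehicle arrays are mostly red and the dexamethasone arrays mostly blue in both genotypes, Gbp4, Gbp3, Iigp1 and Tgtp1 vary widely, and Usp18 shows the opposite pattern, as does Trim25 in WT but not in KO.

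The count in WT depends on how arrays are put on 1 scale. When each array was scaled to its median, the change of the median feature in WT moved from -0.08 to 0.17, and 14 members fell and 2 rose. Called features in WT numbered 2202, against 2694 in the main fit. The share of higher among all called features in WT then went from 47.1% to 82.8%. It was 57.2% after quantile normalization (22 members lower, 1 higher) and 57.1% with the deposited log2 values (23 lower, 1 higher). In KO the share went from 55.8% to 44.3% with median scaling (23 members lower, 1419 features called) and to 44.8% with quantile normalization (26 lower, 2395 called). With normexp background correction 3 members fell in WT and 7 in KO, where only 193 and 413 features were called. Its fitted background mean was below 0 on most arrays, down to -313.3 intensity units. Its fitted SD was 995.7 on WT dexamethasone replicate 3, so the normexp fit was poor here and its values are given with that limit. With slide as a fixed block 12 members fell in WT and 24 in KO, where 779 and 2628 features were called, against 2694 and 2573 in the main fit. In that block fit the WT dexamethasone group rests on replicates 2 and 4. Dexamethasone and vehicle arrays shared 4 slides. On each of these 32 of the 35 genes were lower with dexamethasone, though not the same 32. Usp18 was higher on all 4, and the other genes that were higher varied by slide. The members' median difference was -0.91 in WT (slide 5) and -1.02, -0.97 and -0.74 in KO (slides 4, 6 and 7). No share of all features is given for these within-slide counts.

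The GTPase genes encode guanylate-binding proteins (Gbp2, Gbp3, Gbp4) and immunity-related GTPases (Iigp1, Igtp, Irgm1, Tgtp1), which gather on the vacuoles of intracellular pathogens. Of the 7, 6 fell in WT and 5 in KO, with a median log2 change of -1.94 and -1.63. Gbp4 was at -2.14, -2.45, -2.25 and -2.76 on the WT vehicle arrays and at -5.43, -5.41, -5.03 and -5.51 with dexamethasone. In KO it was at -2.89, -2.91, -1.20 and -2.34 with vehicle and -5.73, -6.64, -5.80 and -5.21 with dexamethasone. The groups lay at least 2 log2 units apart in both genotypes, and the fitted log2 change of Gbp4 was -2.95 ± 0.36 (SE) in WT (adjusted p = 0.00019) and -3.51 ± 0.36 (SE) in KO (adjusted p = 3.73e-05). Gbp4 was above background on 3 of 4 WT and 2 of 4 KO dexamethasone arrays, so these sizes rest in part on readings near background. With normexp its changes were -0.54 and -0.93 and did not pass (adjusted p = 0.987 and 0.881), and its WT change was smaller than those of Gbp3 (-1.34) and Iigp1 (-1.58).

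Gbp3 was at 0.24, -0.074, -0.38 and -0.35 in WT vehicle and -2.59, -2.15, -2.67 and -2.16 in WT dexamethasone muscle. The KO arrays read -0.57, -0.29, 0.97 and 0.33 with vehicle and -2.23, -2.75, -2.07 and -1.71 with dexamethasone. It fell 4.76-fold in WT and 4.92-fold in KO (adjusted p = 0.000437 and 0.000309), with no overlap of the groups. Iigp1, an effector of the immunity-related GTPase family, was at 1.42, 1.0, 0.82 and 0.64 in WT vehicle and -1.13, -1.26, -1.39 and -1.26 in WT dexamethasone muscle. Its KO levels were 0.23, 0.29, 2.37 and 1.36 with vehicle and -1.14, -1.72, -0.96 and -1.01 with dexamethasone. Iigp1 fell 4.7-fold in WT and 4.82-fold in KO (adjusted p = 0.0021 and 0.00166), and KO vehicle replicate 3 stood highest of all 16 arrays. Gbp2 fell 2.65-fold in WT, from 0.85, 0.86, 0.59 and 0.68 to -0.55, -0.68, -0.83 and -0.58 (adjusted p = 0.000276). In KO it fell 3.1-fold, from 0.41, 0.53, 1.39 and 0.76 to -1.05, -0.99, -0.72 and -0.69 (adjusted p = 6.63e-05).

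Tgtp1, a T-cell specific GTPase first found in activated T cells, behaved less evenly. It was at 0.96, 0.68, 0.85 and 0.67 in WT vehicle muscle and at -0.15, -0.83, -1.77 and -1.84 with dexamethasone, a fall of 3.83-fold (adjusted p = 0.0142). Among KO animals the vehicle levels were 0.18, -0.11, 2.12 and 1.39 and the dexamethasone levels 0.056, -0.40, -0.21 and 0.057. The KO groups overlapped, since KO vehicle replicate 2 lay within the range of the dexamethasone arrays, and the KO difference of -1.02 ± 0.45 (SE) did not pass (adjusted p = 0.21). Without both arrays with raised neutrophil markers the WT fall of Tgtp1 was -1.73 and did not pass (adjusted p = 0.0548). Its second probe gave -1.33 in WT (adjusted p = 0.19) and 0.31 in KO (adjusted p = 0.85), so the probes disagreed in KO. Near-identical copies exist for Tgtp1, the guanylate-binding proteins, and the OAS and IFIT genes, and signal may be shared between them.

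Igtp, which encodes the regulatory GTPase Irgm3, was at 2.42, 2.29, 2.40 and 2.40 in WT vehicle and 1.96, 1.07, 1.57 and 1.63 in WT dexamethasone muscle. KO muscle gave 2.22, 2.03, 2.75 and 2.66 under vehicle and 1.79, 1.90, 1.71 and 1.41 under dexamethasone. Igtp fell 1.76-fold in WT and 1.64-fold in KO (adjusted p = 0.0146 and 0.0312). The KO fall did not pass without any 1 of KO vehicle replicates 3 and 4 or KO dexamethasone replicates 1, 3 and 4 (log2 -0.74 to -0.60, adjusted p 0.052 to 0.0958). Nor did it pass without both arrays with raised neutrophil markers (-0.74, adjusted p = 0.0674). Irgm1, the regulator that keeps the effector GTPases inactive on host membranes, was at 1.61, 1.5, 1.45 and 1.58 with vehicle and 1.43, 1.13, 1.27 and 1.25 with dexamethasone in WT. For KO the vehicle values were 1.46, 1.52, 1.83 and 1.57 and the dexamethasone values 1.42, 1.28, 1.34 and 1.61. Its difference of -0.26 ± 0.10 (SE) in WT and -0.18 ± 0.10 (SE) in KO did not pass (adjusted p = 0.13 and 0.367), although the WT groups did not overlap, and it was the smallest of the 7.

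**Figure D2:**
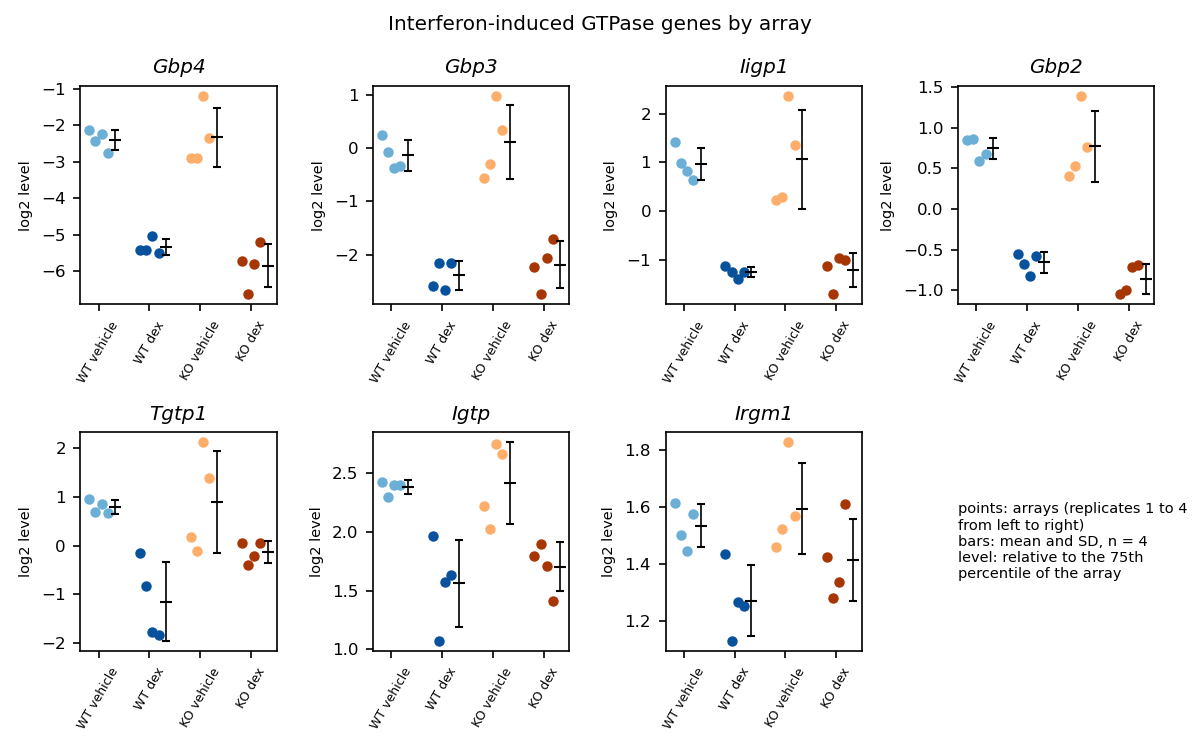
Log2 level relative to the 75th percentile of the array (vertical axes, differing between panels) of the 7 GTPase genes in the 4 groups; points are arrays and bars the mean and SD of 4. The dexamethasone arrays lie below the vehicle arrays for Gbp4, Gbp3, Iigp1 and Gbp2 in both genotypes, the KO vehicle group is the most spread for these 4 and Tgtp1, and Irgm1 moves least.

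All 4 transcription factor genes fell in both genotypes, with a median log2 change of -0.72 in WT and -0.75 in KO. In WT only 1 of the 4, Stat2, fell with median scaling, where Irf9 gave -0.26 and did not pass (adjusted p = 0.261). With slide as a fixed block only 1, Irf7, fell in WT. Stat2 gave -0.86 there and Irf9 -0.60, and neither passed (adjusted p = 0.07 and 0.0748). With the replicate block 2 fell in WT, Stat2 and Irf9, and with normexp 0 fell in either genotype. Stat2, a signal transducer of the type I receptor, was at -1.16, -1.24, -1.31 and -1.26 in WT vehicle and -2.40, -2.03, -2.16 and -2.14 in WT dexamethasone muscle. Levels in KO were -1.62, -1.36, -0.97 and -0.82 with vehicle and -1.97, -2.11, -1.90 and -1.80 with dexamethasone. The groups did not overlap, and Stat2 fell by 0.94 in WT (SE 0.15, adjusted p = 0.00139) and by 0.75 in KO (SE 0.15, adjusted p = 0.00562). Irf9, which gives that complex its DNA contact, was at -0.50, -0.41, -0.36 and -0.31 with vehicle and -0.89, -1.06, -0.78 and -0.87 with dexamethasone in WT. Under vehicle the KO arrays were at -0.36, -0.36, -0.13 and -0.26 and under dexamethasone at -0.90, -1.13, -1.02 and -0.93. The groups did not overlap in either genotype, and the change was -0.50 ± 0.088 (SE) in WT (adjusted p = 0.00247) and -0.71 ± 0.088 (SE) in KO (adjusted p = 0.000166). A second Irf9 probe gave -0.75 in WT, not past the threshold (adjusted p = 0.055), and -1.25 in KO (adjusted p = 0.0036).

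Irf7, the factor that amplifies interferon-alpha production, was at -3.01, -2.49, -2.72 and -2.31 in WT vehicle and -3.18, -3.62, -3.34 and -4.49 in WT dexamethasone muscle. In KO it was at -1.95, -2.13, -1.88 and -1.75 with vehicle and -2.60, -2.80, -3.37 and -2.73 with dexamethasone. It fell 2.03-fold in WT and 1.93-fold in KO (adjusted p = 0.0211 and 0.0319). The WT call was lost without WT vehicle replicate 2 or 4 (log2 -0.98 to -0.92, adjusted p 0.0642 to 0.0654), and the KO call without any 1 of KO vehicle replicates 1, 3 and 4 or KO dexamethasone replicates 2, 3 and 4 (log2 -0.99 to -0.78, adjusted p up to 0.105). Irf1, the factor through which interferon-gamma reaches many of the GTPase genes, was at 1.62, 1.36, 1.37 and 1.25 with vehicle and 0.79, 0.90, 0.90 and 1.06 with dexamethasone in WT. The KO arrays read 1.23, 1.29, 1.61 and 1.60 with vehicle and 0.40, 0.51, 0.89 and 0.90 with dexamethasone. Irf1 fell by 0.76 in KO (adjusted p = 0.00293) and by 0.49 in WT (adjusted p = 0.0376), where the call was lost without any 1 of WT vehicle replicates 1 to 3 or WT dexamethasone replicates 1 to 3 (log2 -0.50 to -0.41, adjusted p 0.0648 to 0.113). The WT call of Irf1 was also lost without both arrays with raised neutrophil markers (-0.48, adjusted p = 0.0607). A second Irf1 probe gave -0.36 in WT (adjusted p = 0.18) and -1.26 in KO (adjusted p = 0.00024).

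Of the 5 genes for sensors of foreign nucleic acid, 2 fell in WT and 4 in KO. Zbp1, the sensor of Z-form nucleic acid that can start cell death, was at -3.33, -2.88, -3.05 and -3.19 in WT vehicle and -4.94, -5.27, -4.92 and -5.70 in WT dexamethasone muscle. Its KO levels were -3.93, -3.20, -2.42 and -3.52 with vehicle and -5.26, -5.49, -5.24 and -4.70 with dexamethasone. Zbp1 fell 4.27-fold in WT and 3.74-fold in KO (adjusted p = 0.000414 and 0.000694), in WT the largest fall of a member outside the GTPase genes, with no overlap of the groups. Ddx58, which encodes the RNA helicase RIG-I, was at -2.29, -2.45, -2.93 and -2.40 with vehicle and -3.94, -3.59, -3.71 and -3.94 with dexamethasone in WT. Among KO animals the vehicle levels were -2.71, -2.68, -2.29 and -1.95 and the dexamethasone levels -2.96, -3.34, -3.30 and -3.16. It fell 2.43-fold in WT and 1.72-fold in KO (adjusted p = 0.000595 and 0.0131). Its probes did not move alike, since of 2 others tested 1 gave -0.49 in WT (adjusted p = 0.032) and the other 0.12 (adjusted p = 0.71).

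Dhx58, which encodes the helicase LGP2, was at -3.51, -3.25, -3.76 and -3.41 with vehicle and -3.48, -4.33, -3.75 and -4.39 with dexamethasone in WT, where the groups overlapped. KO muscle gave -3.53, -3.04, -3.04 and -3.30 under vehicle and -3.91, -4.48, -4.00 and -4.21 under dexamethasone, with every dexamethasone array below every vehicle array. The change was -0.50 ± 0.21 (SE) in WT, which did not pass (adjusted p = 0.156), and -0.92 ± 0.21 (SE) in KO, which did (adjusted p = 0.0113). Ifih1, which encodes the long-RNA sensor MDA5, was at -0.94, -0.87, -1.01 and -0.93 with vehicle and -1.18, -1.20, -1.60 and -1.28 with dexamethasone in WT. For KO the vehicle values were -1.13, -1.04, -0.73 and -0.80 and the dexamethasone values -1.36, -1.62, -1.27 and -1.26. The groups did not overlap in either genotype, but the WT change of -0.38 ± 0.12 (SE) missed the threshold (adjusted p = 0.0646) and the KO change of -0.45 ± 0.12 (SE) passed (adjusted p = 0.0286), losing the call without any 1 of KO vehicle replicates 3 and 4 or KO dexamethasone replicates 1 and 2 (log2 -0.46 to -0.37, adjusted p 0.0565 to 0.089). The WT fall of Ifih1 passed on a second probe (-0.73, adjusted p = 0.042), with probes averaged (-0.56, adjusted p = 0.0174), with probes above background on all 16 arrays (adjusted p = 0.0446) and with slide as a random block (-0.37, adjusted p = 0.0177). Eif2ak2, which encodes the kinase PKR that halts translation on double-stranded RNA, was at -1.94, -1.80, -2.15 and -2.17 with vehicle and -2.28, -2.21, -2.53 and -2.39 with dexamethasone in WT. Levels in KO were -2.13, -2.16, -1.57 and -1.82 with vehicle and -2.12, -2.48, -2.25 and -2.31 with dexamethasone. Neither its WT difference of -0.34 ± 0.14 (SE) nor its KO difference of -0.37 ± 0.14 (SE) passed (adjusted p = 0.157 and 0.128).

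The 3 IFIT genes, whose products bind viral RNA and block its translation, fell in both genotypes. Ifit1 was at -2.97, -2.95, -2.95 and -3.28 in WT vehicle and -4.69, -4.33, -4.95 and -4.60 in WT dexamethasone muscle. Under vehicle the KO arrays were at -3.42, -2.71, -2.33 and -2.51 and under dexamethasone at -4.23, -4.86, -4.16 and -3.70. Ifit1 fell 3.04-fold in WT and 2.82-fold in KO (adjusted p = 0.00127 and 0.0018). Ifit3, its binding partner, was at 0.60, 0.75, 0.56 and 0.54 with vehicle and -1.02, -0.71, -0.57 and -0.25 with dexamethasone in WT. In KO it was at 0.68, 1.03, 1.17 and 0.48 with vehicle and -0.94, -0.35, -0.031 and -0.23 with dexamethasone. The fall of Ifit3 was 2.37-fold in WT and 2.34-fold in KO (adjusted p = 0.00189 and 0.00185), and neither gene's groups overlapped.

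Ifit2 was at -2.0, -2.15, -1.84 and -2.09 in WT vehicle and -2.35, -2.35, -2.57 and -2.70 in WT dexamethasone muscle. The KO arrays read -1.92, -1.74, -1.65 and -1.62 with vehicle and -2.75, -2.55, -2.30 and -2.57 with dexamethasone. It moved less, by -0.47 ± 0.12 (SE) in WT (adjusted p = 0.0216) and -0.81 ± 0.12 (SE) in KO (adjusted p = 0.000625). The WT call of Ifit2 was lost without any 1 of WT vehicle replicates 1 and 3 or WT dexamethasone replicates 3 and 4 (log2 -0.46 to -0.40, adjusted p 0.0522 to 0.0617), after quantile normalization (-0.32, adjusted p = 0.169) and with the deposited log2 values (-0.22, adjusted p = 0.413). Leaving out both arrays with raised neutrophil markers also ended the WT call of Ifit2 (-0.45, adjusted p = 0.0505). Its second probe gave a larger fall in WT (-1.49, adjusted p = 0.021) and -0.77 in KO (adjusted p = 0.26).

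Among the 4 OAS genes, which encode oligoadenylate synthetases and related proteins, 2 fell in each genotype. Oasl2 was at -1.09, -0.99, -0.83 and -1.13 in WT vehicle and -2.51, -2.43, -3.08 and -2.98 in WT dexamethasone muscle. Its KO levels were -1.09, -0.77, -0.52 and -1.06 with vehicle and -2.97, -3.13, -2.78 and -1.97 with dexamethasone. Its groups were well apart, with a fall of 3.34-fold in WT and 3.6-fold in KO (adjusted p = 0.000389 and 0.000194). Oas2 was at -1.90, -1.62, -1.80 and -1.49 with vehicle and -2.56, -2.61, -2.95 and -2.71 with dexamethasone in WT. Among KO animals the vehicle levels were -1.94, -1.69, -1.37 and -1.40 and the dexamethasone levels -2.41, -2.49, -2.06 and -1.57. It fell 2.01-fold in WT (adjusted p = 0.0048), whereas the KO difference of -0.53 ± 0.19 (SE) did not pass (adjusted p = 0.11) and passed only without KO dexamethasone replicate 4 among the arrays left out in turn (-0.72, adjusted p = 0.0187).

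Oasl1 gave the reverse. It was at -4.01, -3.40, -3.27 and -3.77 in WT vehicle and -4.42, -3.17, -4.61 and -5.46 in WT dexamethasone muscle. KO muscle gave -3.18, -2.84, -3.37 and -3.23 under vehicle and -4.77, -5.04, -5.00 and -4.34 under dexamethasone. The WT groups overlapped through dexamethasone replicate 2 and the difference of -0.80 ± 0.36 (SE) did not pass (adjusted p = 0.197), while without that array it was -1.22 (adjusted p = 0.0125). In KO Oasl1 fell 3.1-fold (adjusted p = 0.0107). Oas3 was close to background, at -4.70, -4.68, -3.98 and -4.79 with vehicle and -5.17, -5.56, -6.66 and -6.35 with dexamethasone in WT. For KO the vehicle values were -4.12, -6.47, -3.80 and -4.59 and the dexamethasone values -4.64, -3.77, -5.72 and -4.48, and there the groups overlapped. The WT groups did not overlap, with the dexamethasone arrays lower and 2 of those 4 above background. The WT difference of -1.40 ± 0.55 (SE) and the KO difference of 0.095 ± 0.55 (SE) did not pass (adjusted p = 0.132 and 0.957), though the first passed without KO vehicle replicate 2 (-1.40, adjusted p = 0.0479). A second Oas3 probe gave 0.36 and 0.80.

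Of 7 measured genes for other antiviral effectors, 5 fell in both genotypes. Rtp4, a receptor-transporting protein that restrains viral genome copying, was at 0.41, 0.40, 0.57 and 0.27 in WT vehicle and -0.80, -1.0, -1.09 and -1.18 in WT dexamethasone muscle. Levels in KO were 0.081, 0.27, 0.71 and 0.69 with vehicle and -1.02, -1.07, -1.01 and -0.66 with dexamethasone. It fell 2.69-fold in WT and 2.6-fold in KO (adjusted p = 7.44e-05 and 6.45e-05), and the WT value was the lowest adjusted p among the members in WT. Bst2, which encodes the virion tether called tetherin, was at 1.53, 2.05, 1.95 and 2.21 with vehicle and 1.06, 0.98, 0.82 and 0.40 with dexamethasone in WT. Under vehicle the KO arrays were at 1.90, 1.75, 2.24 and 2.13 and under dexamethasone at 1.17, 1.0, 0.80 and 1.07, and it fell 2.17-fold in WT and 1.99-fold in KO (adjusted p = 0.00113 and 0.00226). Xaf1, a promoter of apoptosis, was at -0.87, -0.66, -0.90 and -0.99 with vehicle and -1.83, -1.81, -2.04 and -2.22 with dexamethasone in WT. In KO it was at -0.84, -0.97, -0.39 and -0.47 with vehicle and -1.61, -1.52, -1.85 and -1.66 with dexamethasone, and its fall was 2.17-fold and 1.99-fold (adjusted p = 0.000274 and 0.000544). The groups of Rtp4, Bst2 and Xaf1 did not overlap in either genotype.

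Ifitm3, which blocks viral entry at membranes, was at 3.63, 3.79, 3.72 and 3.70 in WT vehicle and 3.32, 2.98, 3.03 and 3.16 in WT dexamethasone muscle. The KO arrays read 3.79, 3.93, 3.88 and 3.42 with vehicle and 2.97, 2.85, 3.04 and 3.36 with dexamethasone. It fell 1.5-fold in WT and 1.62-fold in KO (adjusted p = 0.0112 and 0.00365). Ifi44 was dim, at -4.16, -3.99, -4.04 and -4.09 with vehicle and -4.56, -7.01, -5.30 and -5.82 with dexamethasone in WT. Its KO levels were -3.65, -3.78, -3.23 and -3.29 with vehicle and -5.27, -5.62, -6.30 and -6.69 with dexamethasone. It was above background on 2 of 4 dexamethasone arrays in each genotype, and it fell 3.04-fold in WT and 5.59-fold in KO (adjusted p = 0.0256 and 0.00175). The WT call of Ifi44 was lost without any 1 of the WT vehicle arrays or WT dexamethasone replicate 4 (log2 -1.63 to -1.55, adjusted p 0.0531 to 0.0709), and with normexp background correction the WT difference was 0.047.

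Ifi35 and Rsad2 did not pass in either genotype. Ifi35 was at 0.95, 1.28, 1.83 and 1.40 in WT vehicle and 1.65, 0.84, 1.47 and 1.06 in WT dexamethasone muscle. Among KO animals the vehicle levels were 2.01, 1.46, 1.34 and 1.45 and the dexamethasone levels 1.62, 1.97, 1.28 and 1.37. Its groups overlapped, and the 95% intervals of the change were -0.61 to 0.39 in WT and -0.51 to 0.49 in KO. Rsad2, which encodes viperin, a maker of a chain-terminating nucleotide, was at -0.89, -1.20, -1.32 and -1.04 with vehicle and -0.65, -1.22, 0.22 and -1.25 with dexamethasone in WT. KO muscle gave -1.47, -1.07, -0.94 and -0.55 under vehicle and -0.15, -1.60, -1.46 and -1.26 under dexamethasone. WT dexamethasone replicate 3 and KO dexamethasone replicate 1, the arrays with raised neutrophil markers, were the highest of their groups for Rsad2, and the part of those cells in its level was not tested. Its intervals were -0.37 to 1.15 and -0.87 to 0.65, and its other 2 probes gave -0.36 and -0.15 in WT.

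Both measured genes for ADP-ribosyltransferase family proteins fell in KO, and 1 of them, Parp14, in WT. Parp14 was at 0.63, 0.63, 0.56 and 0.46 in WT vehicle and -0.13, -0.19, -0.33 and -0.12 in WT dexamethasone muscle. For KO the vehicle values were 0.46, 0.54, 0.96 and 0.96 and the dexamethasone values -0.13, -0.24, 0.14 and -0.20. It fell 1.7-fold in WT and 1.79-fold in KO (adjusted p = 0.00178 and 0.000807), with no overlap. Of its other probes 1 gave -1.38 in WT (adjusted p = 0.0012) and -0.67 in KO, which did not pass (adjusted p = 0.073). Parp9, the partner of the unmeasured Dtx3l in a ubiquitin ligase, was at -1.14, -1.34, -1.41 and -1.36 with vehicle and -1.69, -1.78, -1.48 and -1.58 with dexamethasone in WT. Levels in KO were -1.15, -1.01, -0.95 and -1.13 with vehicle and -1.67, -1.89, -1.40 and -1.40 with dexamethasone. The groups were apart in both genotypes, but the WT change of -0.32 ± 0.12 (SE) did not pass (adjusted p = 0.108) and the KO change of -0.53 ± 0.12 (SE) did (adjusted p = 0.0107).

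Of the 3 genes of the ISG15 cycle, averaged over the genotypes Isg15 fell and Usp18 and Trim25 rose. Isg15, the ubiquitin-like modifier itself, was at -1.97, -1.60, -1.36 and -1.58 in WT vehicle and -2.66, -2.65, -1.57 and -3.36 in WT dexamethasone muscle. Under vehicle the KO arrays were at -1.40, -1.5, -1.34 and -1.02 and under dexamethasone at -1.43, -2.69, -3.05 and -2.57. The groups overlapped through WT dexamethasone replicate 3 and KO dexamethasone replicate 1, and the differences of -0.93 ± 0.36 (SE) in WT and -1.12 ± 0.36 (SE) in KO did not pass (adjusted p = 0.127 and 0.0707). Averaged over the genotypes it fell by 1.03 (SE 0.26, adjusted p = 0.0124). The overlapping arrays are the arrays with raised neutrophil markers, and without both the differences were -1.26 (adjusted p = 0.00377) in WT and -1.45 (adjusted p = 0.00148) in KO. With single arrays left out, Isg15 passed in WT without dexamethasone replicate 3 (-1.26, adjusted p = 0.0289) and in KO without KO dexamethasone replicate 1 or either of WT dexamethasone replicates 3 and 4 (adjusted p 0.0136 to 0.0488).

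Usp18, the protease that strips ISG15 from proteins and also restrains the type I receptor, went the other way. It was at -1.19, -0.78, -0.47 and -1.13 in WT vehicle and 0.90, -0.76, -0.22 and 0.065 in WT dexamethasone muscle. In KO it was at -0.65, -0.63, -0.83 and -0.88 with vehicle and 0.37, 0.15, -0.05 and 0.063 with dexamethasone. All 4 KO dexamethasone arrays lay above all 4 KO vehicle arrays, while WT dexamethasone replicate 2 lay within the WT vehicle range. The difference was 0.89 ± 0.27 (SE) in WT (adjusted p = 0.0533) and 0.88 ± 0.27 (SE) in KO (adjusted p = 0.0582), neither past the threshold, and averaged over the genotypes Usp18 rose by 0.88 (SE 0.19, adjusted p = 0.00523). In WT the rise passed without vehicle replicate 3 or dexamethasone replicate 2 (1.03 to 1.14, adjusted p 0.0106 to 0.042), and with median scaling (1.14, adjusted p = 0.0271). In KO it passed without WT dexamethasone replicate 1 or 2, which leave its value of 0.88 as it was (adjusted p 0.0103 to 0.0233). With the deposited log2 values it passed in both genotypes (0.79 and 0.84, adjusted p 0.0431 and 0.0326).

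Trim25, a ubiquitin and ISG15 ligase that activates RIG-I, was at 0.70, 0.76, 0.72 and 0.85 in WT vehicle and 1.19, 1.14, 1.10 and 1.02 in WT dexamethasone muscle. The KO arrays read 0.85, 0.99, 0.68 and 0.90 with vehicle and 0.88, 0.89, 0.88 and 0.99 with dexamethasone. It rose by 0.35 in WT (SE 0.079, adjusted p = 0.0113), with no overlap, while the KO groups overlapped and differed by 0.053 ± 0.079 (SE) (adjusted p = 0.809). The WT rise did not pass with the deposited log2 values (0.24, adjusted p = 0.0958), with normexp background correction, with slide as a fixed block (0.31, adjusted p = 0.189) or when the 2 WT groups were fitted alone (adjusted p = 0.0625). A second Trim25 probe gave 0.27 in both genotypes (adjusted p = 0.23 and 0.27).

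**Figure D3:**
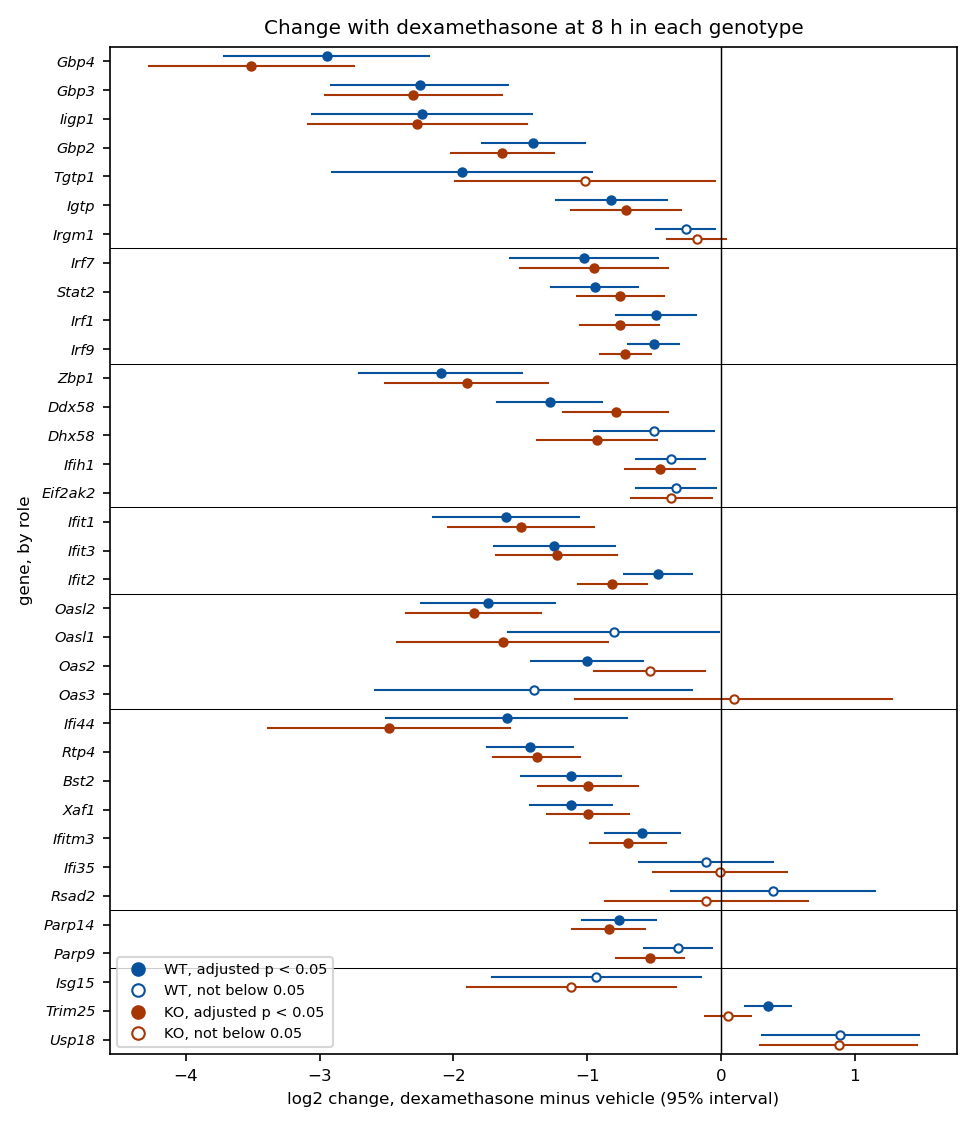
Log2 change with dexamethasone (horizontal axis, with 95% intervals) of the 35 genes (vertical axis, grouped by role) in WT (blue) and KO (dark orange); filled points have an adjusted p under 0.05. The lowest value is -3.51 for Gbp4 in KO, which rests in part on arrays near background, most other genes lie below 0, and Usp18 and Trim25 lie above 0 (Trim25 in KO with an interval that includes 0).

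The type I-like genes and the GTPase genes were then set side by side. Of the type I-like genes 13 of 24 fell in WT and 16 of 24 in KO, with a median log2 change of -0.87 and -0.82. The median for the GTPase genes, of which 6 of 7 fell in WT and 5 of 7 in KO, was -1.94 and -1.63. On each array the median deviation of the GTPase genes was subtracted from that of the type I-like genes, where each deviation is from the gene's mean over the arrays. This difference was -0.64, -0.46, -0.38 and -0.39 in WT vehicle and 0.21, 0.39, 0.51 and 0.33 in WT dexamethasone muscle. In KO it was -0.07, -0.03, -1.34 and -0.68 with vehicle and 0.73, 0.51, 0.37 and 0.38 with dexamethasone. Since each deviation is centred on the same 16 arrays, the change of sign between treatments restates the larger GTPase median and is no separate support. The GTPase median was the further below 0 on every slide that held both treatments, with -1.51 against -0.79 on slide 5 in WT and -1.81, -2.08 and -1.41 against -0.98, -0.95 and -0.72 on slides 4, 6 and 7 in KO. The values describe lists of unequal length and carry no test.

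The KO vehicle group was the most uneven. Its GTPase median deviation was 0.34 and 0.40 on replicates 1 and 2 against 2.01 and 1.28 on replicates 3 and 4, while WT vehicle arrays lay between 0.68 and 0.86. The type I-like median of the same KO arrays was 0.27, 0.37, 0.67 and 0.60. Iigp1 and Tgtp1 spanned more than 2 log2 units among these 4 animals, and less than 1 among the WT vehicle animals.

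No member differed between the genotypes at the threshold. Between KO and WT under vehicle 0 of 35 members passed (limma, 2 at an unadjusted p under 0.05, lowest adjusted p = 0.527), where 0.266% of features did. Under dexamethasone 0 passed (7 at an unadjusted p under 0.05, lowest adjusted p = 0.128), where 1.88% of features did. Both shares are at the adjusted threshold, and none is given for the unadjusted counts. The median difference KO minus WT was 0.10 under vehicle and 0.08 under dexamethasone, against -0.08 and 0.06 over all features. Under vehicle 33 of 35 genes had a positive value, a count with no share of all features beside it. The slides did not give 1 direction. On slides 4, 6 and 7 the members' median under vehicle was 0.19, 0.47 and -0.10, with 8, 3 and 21 of the 35 genes lower in KO.

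Irf7 was the gene with the largest difference under vehicle. All 4 KO vehicle arrays lay above all 4 WT vehicle arrays, by 0.70 ± 0.26 (SE) (95% interval 0.15 to 1.26, adjusted p = 0.527), and under dexamethasone the difference was 0.78 ± 0.26 (SE) (0.23 to 1.34, adjusted p = 0.169). With slide as a random block it passed under vehicle (0.78, adjusted p = 0.0363) and under dexamethasone (0.94, adjusted p = 0.0167), and with slide as a fixed block under dexamethasone (1.21, adjusted p = 0.0397). Ddx58 was 0.61 higher in KO under dexamethasone (0.21 to 1.0, adjusted p = 0.128) and passed with slide as a random block (0.60, adjusted p = 0.0243). That holds for the probe used, since the other tested Ddx58 probes gave 0.068 and -0.33 there (adjusted p = 0.886 and 0.433). Single probes other than those used passed under dexamethasone for Ifit2 (1.58, adjusted p = 0.042) and Parp14 (0.93, adjusted p = 0.038), while the probes used gave -0.05 and 0.09.

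The change with dexamethasone did not differ between the genotypes at the threshold for any member (limma, 0 of 35, with 1 at an unadjusted p under 0.05), and for none of the 25189 features (0%, 2902 at an unadjusted p under 0.05). That 1 was Trim25, with a KO change 0.30 below the WT change (95% interval -0.54 to -0.06, unadjusted p = 0.0182, adjusted p = 0.351). The median interaction over members was -0.04, against 0.13 over all features. The half-width of the 95% interval ranged from 0.24 to 1.68 with a median of 0.59, and the interval lay within 1 log2 unit of 0 for 23 of the 35 genes. For Tgtp1 it was -0.46 to 2.30, for Oas3 -0.18 to 3.17 and for Ifi44 -2.16 to 0.40, so for these 3 genes the interval reached beyond 1 log2 unit. For Rtp4 it was -0.41 to 0.51 and for Parp14 -0.46 to 0.31. The 4 genes called lower in KO but not in WT (Oasl1, Ifih1, Dhx58, Parp9) and the 2 called lower in WT but not in KO (Oas2, Tgtp1) were among those with no difference past the threshold. These calls also changed with the slide model. As a random block, slide gave WT calls for Ifih1, Dhx58 and Parp9 (adjusted p 0.0177, 0.0156 and 0.00754) and KO calls for Oas2 and Tgtp1 (0.0242 and 0.0365), and as a fixed block it gave a WT call for Dhx58 (-0.99, adjusted p = 0.0338) and none for Oasl1 in KO (adjusted p = 0.0947).

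**Figure D4:**
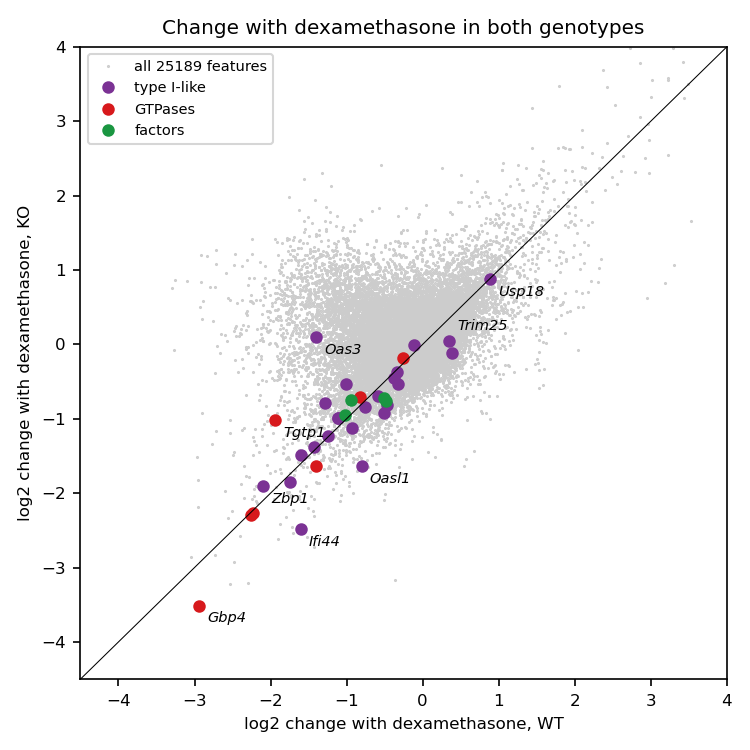
Log2 change with dexamethasone in WT (horizontal axis) and in KO (vertical axis) for all 25189 features (grey; 10 lie outside the axes) and for the type I-like, GTPase and factor genes (coloured); the line marks equal change. Most members lie near the line from Gbp4 at -2.95 and -3.51 up to Usp18 at 0.89 and 0.88, and Oas3 lies away from it at -1.40 and 0.095.

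Among the 7 measured receptor and Janus kinase genes, 1 rose in both genotypes and 1 fell in KO. Ifngr1, the ligand-binding chain for interferon-gamma, rose by 0.42 and 0.65 (adjusted p = 0.0309 and 0.00246). The kinase gene Tyk2 fell in KO by 0.58 (adjusted p = 0.000923) and gave -0.17 in WT (adjusted p = 0.262).

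Among 8 inhibitors of the pathway, 3 rose and 1 fell in each genotype. Of all features 5.03% rose and 5.66% fell in WT, and 5.7% rose and 4.51% fell in KO. The phosphatase genes Ptpn1 and Ptpn11 rose, Ptpn1 by 0.63 and 0.78 and Ptpn11 by 0.67 and 0.95 in WT and KO, as did Pias1, an inhibitor of STAT signalling, by 0.29 and 0.47 (adjusted p up to 0.0273). Socs1, the feedback inhibitor of Janus kinases that interferon itself induces, fell by 2.21 in WT and 1.94 in KO (adjusted p = 0.022 and 0.0427). It was at -1.80, -1.88, 0.82 and -0.007 in WT vehicle and -2.38, -3.91, -2.98 and -2.45 in WT dexamethasone muscle, a wide spread. Among KO animals the vehicle levels were -0.69, -1.36, -0.22 and -0.31 and the dexamethasone levels -2.23, -2.15, -2.83 and -3.15.

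Of 16 genes that act before interferon is made (sensors, adaptors and kinases), 2 rose in WT, Tbk1 (0.38) and Myd88 (0.51), 1 rose in KO, Tlr7 (1.13), and 0 fell. Under dexamethasone the adaptor genes Mavs and Myd88 were lower in KO than in WT, by 0.53 and 0.38 (adjusted p = 0.0165 and 0.0223). Irf3, the factor that starts interferon-beta transcription, gave 0.059 in WT and 0.15 in KO, and Irf8 gave 0.14 and 0.09, neither past the threshold. Of 7 interferon genes with a probe, 4 were bright enough to be tested and 0 of these passed in either genotype (limma, 0 at an unadjusted p under 0.05). Ifnb1, which encodes interferon-beta, was above background on 1 of 16 arrays and was not tested. Ifng was above background on 2 of 4 WT vehicle, 0 of 4 WT dexamethasone, 2 of 4 KO vehicle and 1 of 4 KO dexamethasone arrays. Its difference was -1.55 ± 0.84 (SE) in WT and -0.34 ± 0.84 (SE) in KO (adjusted p = 0.283 and 0.895).

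A further list of 32 measured interferon-stimulated genes outside the 39 moved the same way but less uniformly. In WT 15 fell and 2 rose, with a median of -0.48, where 5.66% of all features fell and 5.03% rose. In KO 10 fell and 3 rose, with a median of -0.31, where 4.51% of all features fell and 5.7% rose. The median over all features was -0.08 in WT and 0.08 in KO. Ly6e, an inhibitor of viral entry, fell by 0.80 in WT and 1.53 in KO (adjusted p = 0.00139 and 8.71e-06). Among further GTPase genes, Ifi47 fell in both genotypes (-1.39 and -1.11), while Gbp5 (-1.48) and Gbp9 (-1.46) fell in WT and gave -1.12 and -1.36 in KO (adjusted p = 0.135 and 0.0534). The synthetase gene Oas1a fell by 1.43 and 1.23, and the mitochondrial nucleotide kinase gene Cmpk2 by 0.77 and 1.18. The genes that rose were Ifi205 (0.63) and Znfx1 (0.47) in WT, and Ifi205 (1.16), Ifi204 (0.65) and Ifitm2 (0.51) in KO.

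Because whole muscle was measured, fewer cells of a type and less RNA per cell cannot be told apart, so the markers of other cells are given beside these falls. In WT 5 of 12 macrophage markers fell (median -0.63) and 0 rose, where 5.66% of all features fell. In KO 1 of 12 fell (median -0.31), where 4.51% of all features fell. All 12 macrophage markers were above background on all 16 arrays. Their summed level ranged from 3.67 to 4.23 in WT vehicle and 3.0 to 3.39 in WT dexamethasone muscle, and from 3.46 to 3.95 and 3.09 to 4.00 in KO. The 5 were Adgre1, Csf1r, Aif1, C1qc and Folr2. Aif1 fell in both genotypes, by 3.05 in WT and 2.86 in KO (adjusted p = 0.000337 and 0.000431). On slides 4 and 6 in KO the macrophage markers differed by a median of -0.09 and 0.03 with dexamethasone, while the members differed by -1.02 and -0.97. On slide 5 in WT and slide 7 in KO they differed by -0.76 and -0.77, and the members by -0.91 and -0.74. The lymphocyte markers differed by -0.33 on slide 5 in WT and by 0.13, -0.86 and -0.73 on slides 4, 6 and 7 in KO, with 11 of 12 lower on slide 5, and 5, 10 and 8 of 12 lower on slides 4, 6 and 7.

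Of 5 dendritic cell markers 1, Itgax, fell in both genotypes, and Siglech passed in WT with 1 of 4 vehicle and 0 of 4 dexamethasone arrays above background, so its size there is not interpretable. The list had summed levels of -0.41 to -0.10 and -1.39 to -0.34 in WT and -1.14 to -0.14 and -1.32 to -0.40 in KO. Of 12 lymphocyte markers 1, Cd247, fell in both genotypes, with changes of -1.91 and -2.61, and the summed level ranged from 0.52 to 0.69 and -0.61 to 1.30 in WT and from -0.57 to 0.74 and -0.49 to 1.27 in KO. Of 9 endothelial markers 0 changed in WT and 4 fell in KO (Pecam1, Kdr, Tek and Tie1, list median -0.29), with summed levels of 4.97 to 5.18 and 4.99 to 5.27 in WT and 5.10 to 5.35 and 4.95 to 5.24 in KO. Of 5 fibroblast markers 1, Lum, fell in each genotype. The part of macrophages, dendritic cells, lymphocytes and endothelial cells in the falls was not tested.

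**Figure D5:**
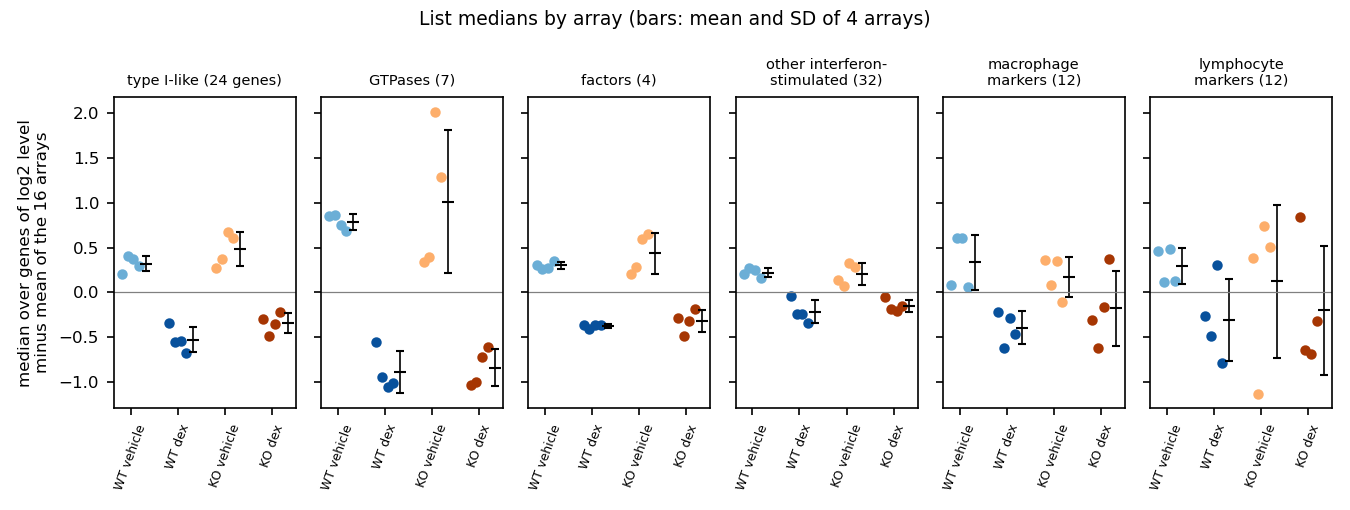
Median over each list of the log2 level minus the gene's mean over the 16 arrays (vertical axis) for the type I-like, GTPase and factor genes, a further list of interferon-stimulated genes, and macrophage and lymphocyte markers, by group; points are arrays and bars the mean and SD of 4. The vehicle and dexamethasone arrays are apart for the first 4 lists in both genotypes, whereas the macrophage markers overlap in KO and the lymphocyte markers in both genotypes.

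Among members with a searchable promoter, the response-element core was present in 7 of 16 genes that fell in both genotypes and in 5 of 10 other tested genes. The gamma-activated sequence was present in 4 of 16 and 2 of 10. Isg15, with 3 matches in the stretch shown above, and Irgm1, with 2, did not pass in either genotype, whereas Ifit1, Ifit3, Gbp2 and Gbp3 fell in both.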

How the data were processed

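Quadriceps RNA of 16 mice was measured on single-dye Agilent arrays. Per the file headers, Feature Extraction 10.7.3.1 made the deposited intensity values, of which the background-subtracted processed signal was used. The authors also deposited a value table on the log2 scale, used as an alternative; the sources used here do not give its normalization. Here each array's log2 processed signal was set relative to its 75th percentile, control spots were left out and replicate spots averaged. A probe was kept if at least 4 arrays measured it well above background. A gene is represented by the probe with the highest mean level, and other probes of the gene are given for some genes. Probe accessions were matched to RefSeq symbols: of 41174 probes, 26382 had a RefSeq accession and 24844 of these received a symbol. The array design and the symbol table use different builds, so no probe coordinates are given. Promoter coordinates are those of GRCm38.p6.

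All 4 groups were fitted together with limma 3.58.1 in R 4.3.3, and p-values were adjusted over all 25189 features by the Benjamini-Hochberg method. Alternatives covered scaling, background correction (normexp on the median spot signal with an offset of 50, since no mean signal column is used here), the filter, the probe rule, slide and replicate blocks, and left-out arrays. An offset of 50 on the processed signal was added after seeing the data. The labels do not say whether replicate numbers pair animals across groups, and the main fit did not pair them. Correlations of deviations between same-numbered arrays ranged from -0.66 to 0.41. They cannot settle the question, since same-numbered arrays lay on different slides.

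The members and gene lists were chosen with earlier results of these data known. Named genes are all members, up to 6 genes per pathway list with the largest change among those that passed, and Ifnb1, Ifng, Irf3, Irf8 and Klf15. Genes behind counts of 5 or fewer are also named and were chosen after their values were seen. A gene of the pathway lists is not reported here.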

Additional observations from a re-analysis of the deposited data

Results flagged for a closer look

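Within groups of 4 arrays, 5 of 152 sets of values held 1 array far from the others, where chance at 1 in 20 gives about 7.6. Ifit1 on WT vehicle replicate 4 was at -3.28, while the other 3 arrays lay between -2.97 and -2.95. Oas3, which is dim, was at -3.98 on WT vehicle replicate 3, against -4.79 to -4.68. The median deviation of the 4 transcription factor genes was -0.40 on WT dexamethasone replicate 2, against -0.37 to -0.36 on the other arrays of that group. On KO dexamethasone replicate 4, Rtp4 was at -0.66 against -1.07 to -1.01, and Trim25 was at 0.99 against 0.88 to 0.89.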

How the results depend on the processing

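The main counts of genes that fell were 23 in WT, 25 in KO and 29 for the average. With arrays left out in turn they ranged from 20 to 24, 22 to 26 and 28 to 30, and no member was called between genotypes or in the interaction. The type I-like median in WT then ranged from -0.99 to -0.73 and the GTPase median from -2.19 to -1.71.

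Median scaling gave 14 genes in WT, with medians of -0.62 and -1.69 for type I-like and GTPase genes. Normexp, whose background fit was poor, gave 3 in WT, 7 in KO and 12 for the average, with type I-like medians of -0.19 and -0.37 and GTPase medians of -1.14 and -0.99 in WT and KO. Among the changes called in the main fit, Ifi44 in WT (0.047) and the average change of Dhx58 (0.067) changed sign under it. Members without a call in WT changed sign as well. There 16 of the 24 type I-like genes lay below 0 under normexp, against 21 in the main fit. The cause was not tested. In WT the type I-like and GTPase medians were -0.56 and -1.58 with an added offset of 50, and -0.62 and -1.64 with the deposited log2 values. The WT GTPase median was -1.67 with probes above background on all 16 arrays, -1.63 with probes averaged and -1.73 without both arrays with raised neutrophil markers. Slide as a fixed block gave 12 genes in WT, 11 of them among the 23, and 1 call between genotypes under dexamethasone. Slide as a random block called 27 genes in WT and 29 in KO, all 23 and 25 among them, and gave 1 call under vehicle and 2 under dexamethasone. The number of features called changed by over 1.5 times with normexp (193 in WT, 413 in KO), the fixed slide block (779 in WT), the random slide block (4042 in WT, 5073 in KO), the fit of only the groups compared (1431 in WT) and, in KO, median scaling (1419) and without slide 7 (1430), against 2694 and 2573. With the replicate block, which pairs animals by number only, 21 genes fell in WT, 22 in KO and 28 on average. That block ended the calls of Irf1 and Irf7 in WT and of Ifih1, Igtp and Irf7 in KO.

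Across all alternatives, 3 of the 24 calls in WT and 7 of the 25 in KO stayed on the same side of the threshold. For some others only normexp, whose fit was poor, ended the call. In WT these were Ddx58, Xaf1, Rtp4, Zbp1, Gbp3, Gbp4 and Iigp1. In KO they were Ifit1, Ifit2, Oasl2, Ifi44, Xaf1, Ifitm3, Zbp1, Gbp4, Irf1 and Irf9. Gbp4, Ifi44 and Oas3 had dexamethasone arrays not above background, which leaves the size of their changes uncertain.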
